A study of Mus musculus with 12 samples.

Results

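Claudins are the membrane proteins that form the strands of tight junctions, the seals between neighbouring epithelial cells. Each has 4 membrane-spanning segments, and the extracellular loops of claudins on facing cells meet in the gap between them. Some members close the gap to ions and others open it: claudin-2 and claudin-15 form channels for small cations in the gut, whereas claudin-4 is counted among the sealing claudins. Which claudins a cell makes therefore sets how leaky its epithelium is, and it differs between the crypt and villus of the intestine, the stomach, the bladder and the embryo.

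The claudin genes described here were taken by name from tables of RNA levels in Lgr5-GFP+ stem cells sorted from the mouse intestinal epithelium. There were 10 names (Cldn2, Cldn3, Cldn4, Cldn6, Cldn7, Cldn12, Cldn15, Cldn18, Cldn23 and Cldn25) among 14082 gene symbols used, and values were summed where a symbol had several loci. The names were put forward with their values in these libraries already known, in all 3 comparisons. Their levels and differences are therefore given as a description, without a test. The row named Cldn25 carries the RefSeq transcript of Cldnd1, claudin domain containing 1, on chromosome 16 from 58727910 to 58734247. Cldn25 is an older name of that gene, and its protein is a relative of the claudins, so 9 of the 10 names are claudins and counts below are out of 9. Of these, 6 are known from the intestine (Cldn2, Cldn3, Cldn7, Cldn12, Cldn15 and Cldn23) and 3 are better known from other epithelia or the embryo (Cldn4, Cldn6 and Cldn18). Cldn1 and Cldn8 are the other claudins in the tables.

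The C57BL/6 mice all carried Lgr5-CreERT2-ires-eGFP, which makes a tamoxifen-dependent Cre recombinase and green fluorescent protein in cells that use the Lgr5 gene. All received 1 injection of tamoxifen and then 5 days of a diet containing it, and the GFP+ cells were sorted on day 15. The mice differed in Apc: 4 were Apc+/+ (Apc_WT), 4 were ApcFlox/+ (Apc_HET), which keep an intact allele after recombination, and 4 were ApcFlox/Flox (Apc_KO), which keep none. The Apc protein helps to have beta-catenin degraded, so its loss switches on the Wnt pathway. Ages are not given in the sources used here, and each of the 12 libraries is from a separate mouse, so p-values measure the spread between mice of 1 experiment.

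Values are FPKM (fragments scaled by transcript length and by the mapped fragments of the library), which is a level per length, so levels can be compared between genes. A value summed over several loci, as for Cldn23, is less comparable. Log2 differences were taken on log2(FPKM + 1), which shrinks the difference of genes near 0, and standard errors (SE) are from a limma fit over the 12962 genes that reached 1 FPKM in 4 or more of the 12 libraries. Total FPKM ran from 391710 to 518428 per library. The relative depth of the other libraries was 0.37 to 0.883 times that of Apc_WT library 1, and the absolute depth is unknown. Epcam, the epithelial adhesion gene, averaged 791, 767 and 791 FPKM in Apc_WT, Apc_HET and Apc_KO. Lgr5 was between 20.2 and 31.6 FPKM in Apc_WT and Apc_HET and between 27.0 and 65.4 in Apc_KO. Olfm4, another stem cell gene, averaged 391 FPKM in Apc_KO, against 5461 in Apc_WT and 6301 in Apc_HET. Intestinal stem cell markers, 6 in all, summed to 366 to 1087 FPKM in Apc_KO libraries. Their sum was 5282 to 6078 FPKM in Apc_WT libraries and 4952 to 8015 in Apc_HET libraries. Limma called 2 of these 6 higher and 1 lower in Apc_KO than in Apc_WT (adjusted p under 0.05). Apc read 6.91 to 10.5 FPKM in Apc_WT libraries, 9.81 to 12.5 in those of Apc_HET, and 9.94 to 17.3 in those of Apc_KO. That value covers the whole gene and does not measure the deleted exons. The median log2 difference of all genes was 0.12 for Apc_KO minus Apc_WT, and 0.01 once libraries were scaled by size factors. With that scaling the differences of Cldn15 and Cldn4 in this comparison were -3.49 and 4.12, and those of Cldn2, Cldn7, Cldn12 and Cldn3 were -0.59, -0.68, -0.49 and -0.36.

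The promoters of 3 claudins whose levels separated Apc_KO from the other genotypes, and which held a motif match, are shown first. They are from RefSeq on GRCm38.p6, 5′ to 3′ on the strand of the gene, and hold the 250 bases before each annotated start. Capitals mark matches to 2 motifs on either strand: the AP-1 motif TGANTCA, bound by Fos and Jun proteins, and the TCF/LEF motif written as CTTTGAA or CTTTGAT, bound by the partners of beta-catenin. Cldn4 is on the minus strand at chr5:134946935-134947184, Cldn15 on the plus strand at chr5:136967619-136967868, and the starts of Cldn18 are on the minus strand at chr9:99717268-99717517 (first) and chr9:99710064-99710313 (second).
Cldn4: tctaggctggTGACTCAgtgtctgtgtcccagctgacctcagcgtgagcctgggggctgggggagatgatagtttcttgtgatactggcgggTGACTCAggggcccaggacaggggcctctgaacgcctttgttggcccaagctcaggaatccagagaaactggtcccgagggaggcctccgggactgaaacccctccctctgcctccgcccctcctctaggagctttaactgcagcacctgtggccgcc
Cldn15: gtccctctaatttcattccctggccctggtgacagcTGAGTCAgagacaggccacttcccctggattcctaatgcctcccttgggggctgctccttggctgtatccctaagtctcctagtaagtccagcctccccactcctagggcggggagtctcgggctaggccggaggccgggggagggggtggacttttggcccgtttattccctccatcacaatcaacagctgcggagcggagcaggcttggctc
Cldn18, first start: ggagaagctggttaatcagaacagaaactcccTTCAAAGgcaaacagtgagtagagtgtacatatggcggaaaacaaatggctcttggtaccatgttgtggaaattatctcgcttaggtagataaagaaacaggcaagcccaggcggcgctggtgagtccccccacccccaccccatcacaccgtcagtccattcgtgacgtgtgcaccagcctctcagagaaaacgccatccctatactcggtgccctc
Cldn18, second start: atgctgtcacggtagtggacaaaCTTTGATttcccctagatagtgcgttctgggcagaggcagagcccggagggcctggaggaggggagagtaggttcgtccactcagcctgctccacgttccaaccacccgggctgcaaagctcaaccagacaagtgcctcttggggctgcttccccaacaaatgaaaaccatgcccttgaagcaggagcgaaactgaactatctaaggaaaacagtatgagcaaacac

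Of the 10 names, 8 had a promoter entry, with 12 windows of 300 bases (250 before the start and 50 after). The Cldn4 window held 2 AP-1 matches, beginning 240 and 158 bases before the start, and the Cldn15 window held 1, beginning 214 bases before it. AP-1 matches were in 7.81% of all 32851 windows of this length. Both Cldn18 windows held a TCF/LEF match, 218 and 227 bases before the start, against 8.65% of all windows. Cldn2 had a match to the CDX motif TTTATG 244 bases before its start, a motif present in 11.9% of windows. The windows of Cldn3, Cldn6, Cldn7 and Cldn12 matched none of the motifs searched, which also included the GRHL motif AACCNGTT (2.09% of windows) and the HNF1 motif (0.00913%). A claudin that was lower in Apc_KO and one that was higher both had AP-1 matches, and the matches are letters in a window, not sites of binding.

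In wild-type cells the claudin signal was led by Cldn3, and in Apc_KO cells Cldn4 stood beside it. In Apc_WT the order of mean levels was Cldn3 (510.4 FPKM), Cldn15 (239.8), Cldn7 (198), Cldn2 (127), Cldn4 (30.8), Cldn23 (27.3), Cldn12 (21.3), Cldn8 (1.72), Cldn6 (0.209), Cldn1 (0.0620) and Cldn18 (0.0162). Among neighbours in this order, the libraries of Cldn4 and Cldn23 overlapped, as did those of Cldn23 and Cldn12, of Cldn6 and Cldn1 and of Cldn1 and Cldn18, and every other neighbouring pair was separate. In Apc_HET the order was the same, but Cldn15 overlapped with Cldn7 and Cldn2 with Cldn4, and Cldn23 was separate from Cldn12. In Apc_KO the order became Cldn4 (588 FPKM), Cldn3 (437), Cldn7 (136), Cldn2 (91.8), Cldn23 (25.4), Cldn15 (23.6), Cldn12 (16.6), Cldn6 (6.75), Cldn18 (4.08), Cldn8 (3.69) and Cldn1 (1.77). There the neighbours Cldn4 and Cldn3 overlapped, as did Cldn7 and Cldn2, and Cldn15 overlapped with Cldn23 and with Cldn12. Each neighbouring pair among the last 4 overlapped too. Cldn15 thus went from the second place to the sixth, and Cldn4 from the fifth to the first.

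**Figure D1:**
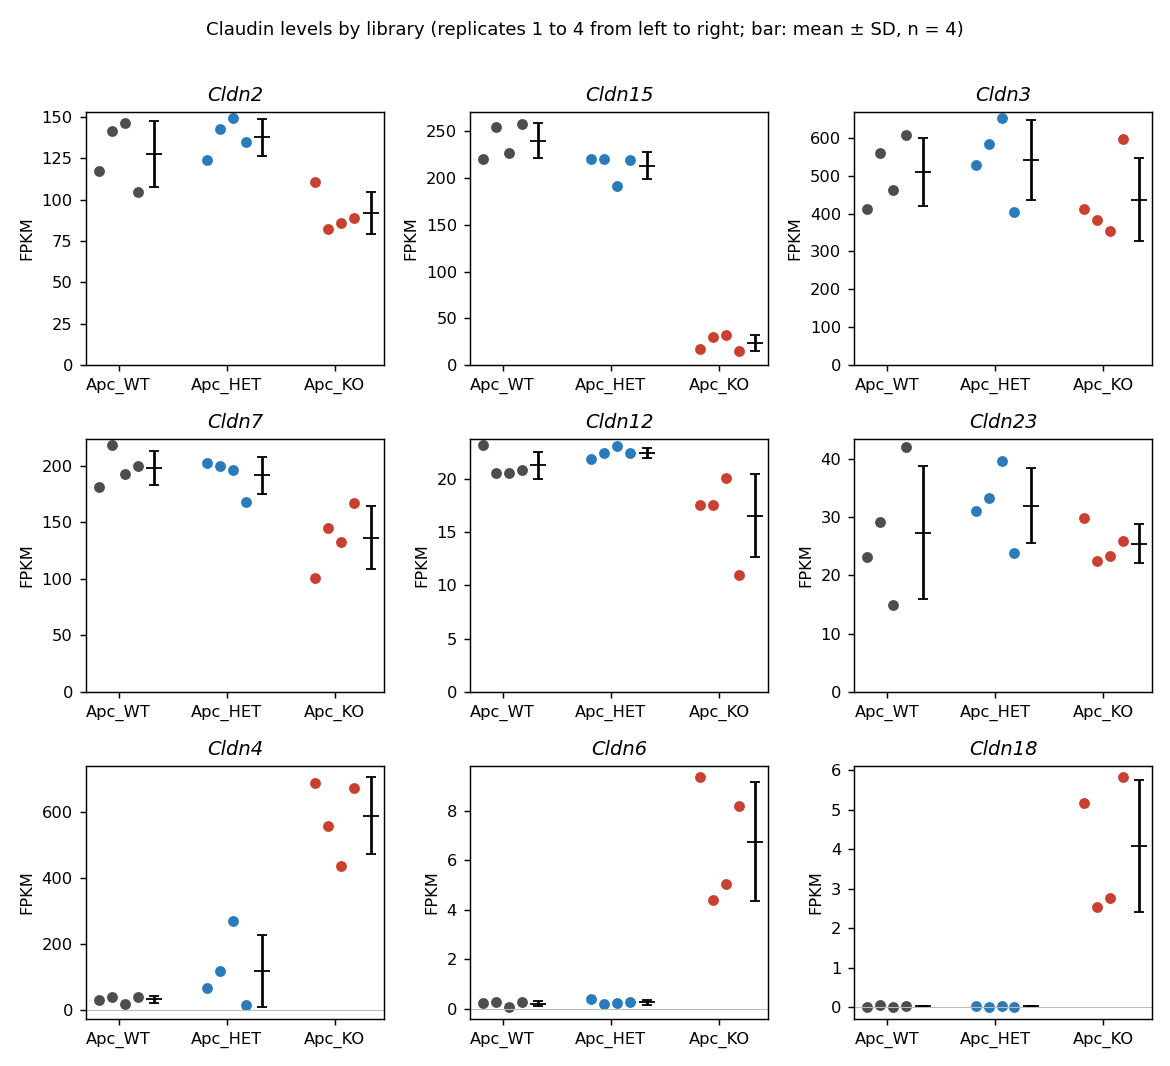
FPKM of 9 claudins (vertical axes, each with its own scale) in the libraries of Apc_WT, Apc_HET and Apc_KO; points are libraries, with replicates 1 to 4 from left to right, and bars are the mean ± SD (n = 4). The 4 Apc_KO libraries sit below all others for Cldn15 (15.1 to 32.4 FPKM) and above all others for Cldn4, Cldn6 and Cldn18.

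Cldn15 had the largest decrease among the claudins. Its protein forms cation channels that let sodium back into the gut lumen, and the gene lies on chromosome 5 from 136967869 to 136975845. Cldn15 was at 220.4, 255, 227 and 257 FPKM in Apc_WT libraries 1 to 4, at 221, 221, 191 and 219 in Apc_HET, and at 16.9, 29.9, 32.4 and 15.1 in Apc_KO. Every Apc_KO library lay far below the lowest library of the other genotypes, while Apc_HET and Apc_WT met at 221 and 220.4 FPKM. Mean levels of Cldn15 were 239.8 ± 18.9 (Apc_WT), 213 ± 14.5 (Apc_HET) and 23.6 ± 8.85 FPKM (Apc_KO; SD, n = 4), a level 10.2 times lower in Apc_KO than in Apc_WT. The log2 difference was -3.36 (SE 0.21) for Apc_KO minus Apc_WT, -3.19 for Apc_KO minus Apc_HET and -0.17 for Apc_HET minus Apc_WT. Leaving out any 1 library kept the first between -3.54 and -3.19.

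Cldn2, the other cation channel of the gut and a claudin of the crypt, changed far less. The gene is on chromosome X from 139800808 to 139811386, and its row in the tables is joined with the predicted gene Gm15012, so the value may include fragments of the latter. Its levels were 117, 141, 146 and 104 FPKM in Apc_WT, 124, 143, 149.5 and 135 in Apc_HET, and 111, 82.2, 85.6 and 88.9 in Apc_KO. Library 1 of Apc_KO was above library 4 of Apc_WT, so these genotypes overlapped, whereas all Apc_KO libraries lay below all Apc_HET libraries. The log2 difference was -0.46 (SE 0.14) from Apc_WT and -0.58 from Apc_HET. Because Cldn15 dropped much further, the ratio of Cldn2 to Cldn15 went from 0.534 ± 0.0984 (SD, n = 4) in Apc_WT and 0.651 ± 0.0941 in Apc_HET to 4.46 ± 2.06 in Apc_KO. Its range in Apc_KO was 2.65 to 6.56, with no overlap with the other genotypes.

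Cldn7 and Cldn12 were also lower in every Apc_KO library. Cldn7, a claudin that also binds EpCAM along the sides of the cell, is on chromosome 11 from 69964779 to 69967886, in a deposited locus that overlaps the neighbouring gene Elp5. It read 181, 218, 193 and 199 FPKM in Apc_WT, 202, 199.7, 196 and 167 in Apc_HET, and 101, 145, 133 and 167 in Apc_KO. The highest Apc_KO library came close to the lowest Apc_HET library (167.1 against 167.4 FPKM), so the separation from Apc_HET was narrow. The log2 difference was -0.55 (SE 0.15) from Apc_WT and -0.51 from Apc_HET.

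Cldn12, a widely expressed claudin linked to calcium uptake in the gut, lies on chromosome 5 from 5505015 to 5514976. Its values were 23.2, 20.6, 20.6 and 20.8 FPKM in Apc_WT, 21.9, 22.4, 23.1 and 22.4 in Apc_HET, and 17.6, 17.6, 20.1 and 10.9 in Apc_KO. All 4 Apc_KO libraries were lower than the other 8, but the third by little and the fourth by a lot. The log2 difference from Apc_WT was -0.37 (SE 0.15), and -0.20 without Apc_KO library 4. From Apc_HET it was -0.45, and -0.27 without that library.

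Cldn3 and Cldn23 showed no separation between genotypes. Cldn3, a sealing claudin found throughout the gut, lies on chromosome 5 from 134986214 to 134987476, next to Cldn4. The tables give Cldn3 and Cldn4 the same locus, from 134944948 to 134991769, with a value for each gene, so the division of fragments between them rests on the authors' processing. Its levels were 412, 559, 462 and 608 FPKM in Apc_WT, 528, 584, 653 and 404 in Apc_HET, and 412, 384, 354 and 598 in Apc_KO. Apc_KO library 4 was among the highest of all and the other 3 were at or below the lowest Apc_WT library, so the ranges overlapped. The log2 difference from Apc_WT was -0.24 (SE 0.22). It ran from -0.40 without Apc_KO library 4 to -0.15 without Apc_WT library 4 or Apc_KO library 3. Cldn23, whose product is found in differentiated gut epithelium, lies on chromosome 8 from 35824709 to 35826559, and its value sums 3 loci. It read 23.2, 29.2, 14.9 and 42.1 FPKM in Apc_WT, 31.1, 33.2, 39.7 and 23.9 in Apc_HET, and 29.9, 22.5, 23.3 and 26.0 in Apc_KO. The Apc_WT libraries spread more widely than the genotypes differed, and the log2 difference from Apc_WT (-0.02, SE 0.25) was -0.26 without Apc_WT library 3 and 0.21 without Apc_WT library 4. The row of Cldnd1 also overlapped in all comparisons, with means of 35.1 ± 5.45 (Apc_WT), 32.7 ± 3.59 (Apc_HET) and 26.1 ± 6.09 FPKM (Apc_KO; SD, n = 4) and a log2 difference from Apc_WT of -0.43 (SE 0.16).

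Cldn4 had the largest increase in FPKM, and the largest log2 difference with 1 FPKM added. With 0.1 FPKM added its value of 4.29 was below those of Cldn6 and Cldn18, which are near 0 in Apc_WT. Cldn4 is a sealing claudin of the bladder, lung, kidney collecting duct and surface gut epithelium and, with Cldn3, a receptor of Clostridium perfringens enterotoxin; the gene lies on chromosome 5 from 134945123 to 134946934. It read 29.1, 38.8, 18.1 and 37.3 FPKM in Apc_WT, 64.6, 117, 268 and 15.0 in Apc_HET, and 688, 557, 436 and 671 in Apc_KO. All Apc_KO libraries exceeded all others, and in Apc_HET 3 libraries lay above every Apc_WT library and the fourth below all of them. Mean levels of Cldn4 were 30.8 ± 9.48 (Apc_WT), 116 ± 109 (Apc_HET) and 588 ± 117 FPKM (Apc_KO; SD, n = 4), so the Apc_KO mean was 19.1 times the Apc_WT mean. The log2 difference was 4.24 (SE 0.65) for Apc_KO minus Apc_WT and 2.93 for Apc_KO minus Apc_HET. Cldn4 differed from Apc_WT in Apc_HET by 1.31 on the log2 scale, with overlapping libraries. That value was 0.70 without Apc_HET library 3 and 2.06 without Apc_HET library 4.

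Cldn6 and Cldn18 were near 0 in Apc_WT and Apc_HET and were measured at low levels in every Apc_KO library. Both passed the filter on low values only through the 4 Apc_KO libraries, so a difference between genotypes was built into their selection. Cldn6, a claudin of embryonic epithelia, lies on chromosome 17 from 23679348 to 23682446. Its levels were 0.216, 0.292, 0.0578 and 0.271 FPKM in Apc_WT, 0.394, 0.184, 0.219 and 0.265 in Apc_HET, and 9.37, 4.40, 5.06 and 8.18 in Apc_KO. The lowest Apc_KO library was thus above 4 FPKM where no other library reached 0.4. The log2 difference was 2.63 (SE 0.20) from Apc_WT and 2.56 from Apc_HET, and it depended on the value added before the logarithm. With 0.1 FPKM in place of 1 the differences were 4.48 and 4.19.

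Cldn18, the claudin of stomach and lung epithelium, lies on chromosome 9 from 99690796 to 99717267. In Apc_WT it was listed at 0, 0.0481, 0 and 0.0168 FPKM, in Apc_HET at 0.0205, 0, 0.0361 and 0.0101, and in Apc_KO at 5.18, 2.55, 2.76 and 5.83. No library outside Apc_KO reached 0.05 FPKM, and none in Apc_KO was below 2.5. The log2 difference was 2.26 (SE 0.20) from Apc_WT and from Apc_HET, and 5.10 and 5.08 with 0.1 FPKM added. Stomach and lung use different starts of this gene, and the tables hold 1 value for the gene, so the start in use was not measured. Of 7 tested stomach epithelium markers, 6 were called higher in Apc_KO than in Apc_WT by limma (adjusted p under 0.05), against 27.9% of all genes. Their sum over the 9 found was 65.9 to 116 FPKM in Apc_WT libraries, 64.9 to 89.4 in those of Apc_HET and 152 to 352 in those of Apc_KO. The median log2(FPKM + 1) of the 9 was 0.06, 1.74, 0.05 and 0.08 in Apc_WT libraries 1 to 4. It was 0.56, 0.04, 0.05 and 0.06 in those of Apc_HET and 2.70 to 3.24 in those of Apc_KO. Where the median was near 0, a minority of the 9 genes carried the sum. The mucin genes Muc6 and Muc5ac reached 10.1 to 33.9 and 1.48 to 6.75 FPKM in Apc_KO, while Muc5ac was listed at 0 in every Apc_WT library and Gkn1 and Gkn2 in every Apc_HET library. Both mucin genes are among the called markers and passed the filter on low values only through the Apc_KO libraries. A difference between genotypes was thus built into their selection too. With medians near 0 in most libraries outside Apc_KO, other called markers may have passed in the same way. Nothing is read from the count of called stomach markers. The part of other epithelial cells in the Cldn18 signal was not tested, and in sorted bulk cells more cells of a type and more RNA per cell cannot be told apart.

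Counted together, 3 of the 9 claudins had all Apc_KO libraries above all Apc_WT libraries (Cldn4, Cldn6 and Cldn18), 3 had them below (Cldn7, Cldn12 and Cldn15) and 3 overlapped (Cldn2, Cldn3 and Cldn23). Among all genes tested, 40.4% did not overlap in this comparison, 24.3% above and 16% below. Against Apc_HET the same 3 were above, 4 were below with Cldn2 added, and 2 overlapped, where 39.5% of all genes did not overlap (21.4% above and 18% below). Between Apc_HET and Apc_WT all 9 overlapped, where 6.08% of all genes did not. Since these names were chosen on the same values, nothing is read from the counts. The comparisons share libraries: Apc_KO enters the first 2 and Apc_WT the first and the last.

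The summed claudin level overlapped between the genotypes while its make-up differed. Over 11 claudins, Cldn1 and Cldn8 included, the sum was 1157 ± 132 (Apc_WT), 1257 ± 224 (Apc_HET) and 1335 ± 214 FPKM (Apc_KO; SD, n = 4). The share of Cldn4 in it was 2.64 ± 0.65% in Apc_WT, 8.35 ± 6.86% in Apc_HET and 43.9 ± 4.02% in Apc_KO. Cldn15 went the other way, from 20.8 ± 0.787% and 17.5 ± 3.99% to 1.88 ± 0.957%. Cldn3 made up 43.9 ± 2.97% in Apc_WT, 43.0 ± 1.58% in Apc_HET and 32.5 ± 3.50% in Apc_KO, and Cldn7 17.2 ± 1.04%, 15.5 ± 1.93% and 10.3 ± 2.21%. The ratio of Cldn4 to Cldn3, the 2 enterotoxin receptors, was 0.0602 ± 0.0146 in Apc_WT, 0.193 ± 0.160 in Apc_HET and 1.37 ± 0.243 in Apc_KO. In each Apc_KO library Cldn4 was higher than Cldn3 (ratios 1.67, 1.45, 1.23 and 1.12), and in no other library was it.

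**Figure D2:**
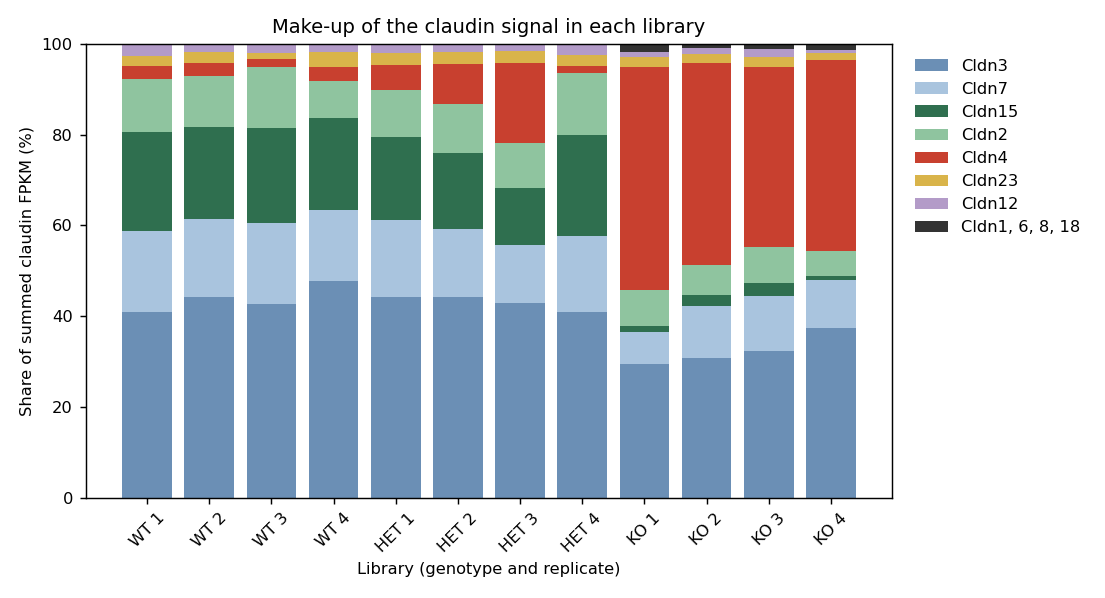
Share of each claudin in the summed claudin FPKM of a library (vertical axis, percent; colours are claudins) for the 12 libraries on the horizontal axis. Cldn4 takes 39.8 to 49.2% in Apc_KO, 1.67 to 3.07% in Apc_WT and between 1.52 and 17.6% in Apc_HET, while Cldn15 shrinks to 0.945 to 2.95% in Apc_KO.

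Within Apc_KO, libraries 1 and 4 lay on one side of libraries 2 and 3 for most claudins. Cldn15 was lower in libraries 1 and 4 (16.9 and 15.1 FPKM) than in 2 and 3 (29.9 and 32.4). Cldn12 was lower in them too, though library 1 only just (17.56 FPKM against 17.58 in library 2). Cldn1, Cldn2, Cldn3, Cldn4, Cldn6, Cldn8, Cldn18 and Cldn23 were each higher in libraries 1 and 4 than in 2 and 3. Cldn7 did not follow this division. Olfm4, a stem cell gene, read 106, 674, 702 and 81.7 FPKM in Apc_KO libraries 1 to 4, and the mitotic gene Top2a 49.9, 141, 147 and 53.8. Goblet cell markers summed to 211, 472, 482 and 262 FPKM in the same order. Paneth cell markers went the other way (5858, 1263, 2095 and 3220 FPKM). Enterocyte markers (81.6, 291, 152 and 275 FPKM) and Lgr5 (65.4, 35.4, 36.3 and 27.0 FPKM) did not follow the division. The relative depth of these 4 libraries was 0.483, 0.76, 0.432 and 0.609, which does not follow the division either. What this division reflects was not tested.

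In Apc_HET, 3 claudins shared an order of libraries that the other claudins did not have. Cldn4 was highest in library 3, then 2, 1 and 4 (268, 117, 64.6 and 15.0 FPKM), and Cldn3 (653, 584, 528 and 404) and Cldn23 (39.7, 33.2, 31.1 and 23.9) had the same order. Immediate early genes, which are switched on within minutes of a stimulus such as tissue dissociation, were compared with Cldn4 in a list of 12 chosen after the values were seen. Summed over the 11 found, they read 4453, 3435, 2164 and 4112 FPKM in Apc_WT, 5330, 4970, 8158 and 2707 in Apc_HET and 6561, 5256, 6104 and 4701 in Apc_KO. Apc_HET library 3 had the highest sum of all. Its Cldn4 (268 FPKM) was the highest outside Apc_KO and below that of every Apc_KO library. The 2 libraries with the lowest sums, Apc_WT 3 and Apc_HET 4, had the lowest Cldn4. The part of the immediate early response in the Cldn4 levels was not tested.

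**Figure D3:**
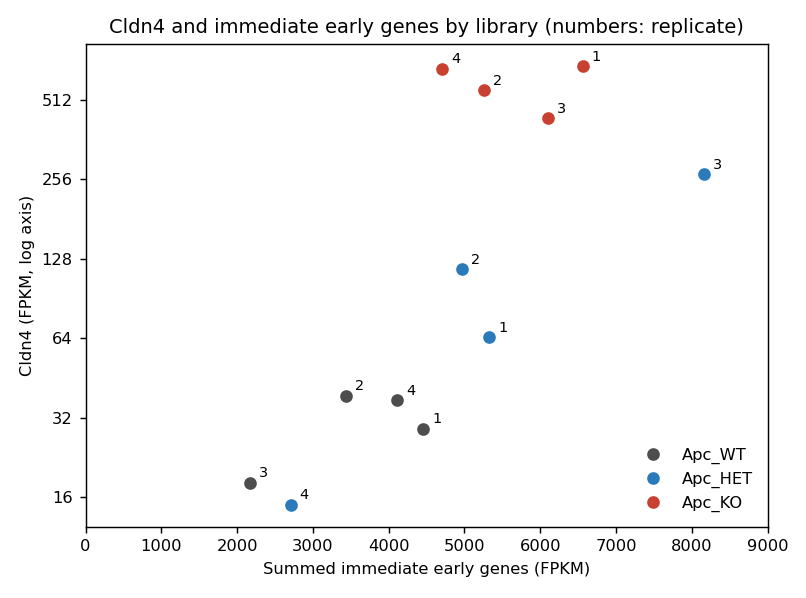
Cldn4 level (vertical log axis, FPKM) against the summed FPKM of 11 immediate early genes (horizontal axis) in 12 libraries, coloured by genotype and numbered by replicate. The Apc_KO libraries (436 to 688 FPKM of Cldn4) lie above Apc_HET library 3, whose immediate early sum of 8158 FPKM is the highest.

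The genes with profiles most like those of Cldn4, Cldn15 and Cldn6, the 3 claudins with the largest differences when 1 FPKM is added (with 0.1 FPKM Cldn18 takes the place of Cldn15), were found by the root mean square difference of centred log2(FPKM + 1) profiles over the 12 libraries, in which 0 means identical. For Cldn4 they were Tnfrsf12a, the receptor of the cytokine TWEAK (0.60), the chemokine gene Cxcl1 (0.62) and the follistatin-like gene Fstl4 (0.68). Tnfrsf12a read 9.88 to 12.8 FPKM in Apc_WT, 17.2, 18.8, 37.0 and 5.41 in Apc_HET and 89.9 to 143 in Apc_KO, the same order of Apc_HET libraries as Cldn4. Cldn15 had closer neighbours: Nags, an enzyme that feeds the urea cycle (0.14), the ubiquitin ligase gene Trim31 (0.17) and the cytochrome gene Cyp2s1 (0.18). Nags averaged 19.3, 17.4 and 1.38 FPKM in Apc_WT, Apc_HET and Apc_KO and, like Cldn15, was lower in Apc_KO libraries 1 and 4 (0.447 and 0.525) than in 2 and 3 (2.001 and 2.54). For Cldn6 they were the adhesion gene Bcam, Camkv and the FGF receptor-like gene Fgfrl1, each at 0.15. These genes were ranked on the same libraries, so their likeness is a description.

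The other claudins were tested in the limma fit. Cldn8, a sealing claudin of the colon and kidney on chromosome 16 from 88560826 to 88563183, read 2.42, 1.44, 1.22 and 1.82 FPKM in Apc_WT, 1.997, 1.54, 1.32 and 1.65 in Apc_HET, and 5.61, 3.19, 2.56 and 3.40 in Apc_KO. All 4 Apc_KO libraries were above the other 8, though the third by little. Cldn8 rose by 0.76 on the log2 scale (SE 0.20) in Apc_KO against Apc_WT (limma, adjusted p = 0.0073) and by 0.80 against Apc_HET (adjusted p = 0.0061). The first call ended with quantile normalization (0.45, adjusted p = 0.0884), and Apc_HET did not differ detectably from Apc_WT (-0.04, adjusted p = 1). In the comparison with Apc_WT, 45.5% of all genes were called, 27.9% higher and 17.7% lower, and 41.8% were called against Apc_HET (22.8% higher and 18.9% lower). Cldn1, a sealing claudin of the skin, missed the filter because only 2 libraries reached 1 FPKM. It read 3.46, 0.923, 0.691 and 2.01 FPKM in Apc_KO and at most 0.113 in Apc_WT and 0.253 in Apc_HET.

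Claudins work with other junction proteins. A list of 76 genes held genes of such proteins and transcription factors described as acting on claudin genes, together called junction genes below. Of these, 63 were found and 60 tested. Between Apc_KO and Apc_WT, 36 of the 60 were called by limma (60.0%, against 45.5% of all genes), 21 higher and 15 lower, with 24 not passing. The median log2 difference was 0.00, beside 0.12 for all genes, and with size factors 18 were higher and 19 lower. Without the transcription factors 26 of 48 were called (54.2%), 18 higher and 8 lower. Against Apc_HET 33 of the 60 were called, 17 higher and 16 lower. The share of all genes called in that comparison was 41.8% (22.8% higher and 18.9% lower). Of the 48 that are not transcription factors, 24 were called there, 15 higher and 9 lower. Between Apc_HET and Apc_WT 0 of the 60 were called (0% of all genes too), with 4 at an unadjusted p under 0.05.

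At the strand itself, the claudins' membrane partners moved unevenly. Marveld2 (tricellulin), which closes the corners between 3 cells, rose from 19.4 ± 2.15 to 29.1 ± 2.91 FPKM (SD, n = 4; log2 difference 0.56, limma adjusted p = 0.00137). Occludin (Ocln) fell from 34.7 ± 2.76 to 27.4 ± 3.89 (-0.34, limma adjusted p = 0.026), a call that ended without Apc_WT library 1 (-0.33, adjusted p = 0.0606), without Apc_WT library 2 (-0.29, adjusted p = 0.0793) and when Apc_HET was left out of the fit (adjusted p = 0.0721). The angulin Ildr1, which recruits tricellulin to those corners, rose from 2.30 to 6.87 FPKM (1.25), and the immunoglobulin-family genes Cxadr (0.91) and F11r (0.82) rose as well. Of 5 tested members of that family 2 rose and 3 did not pass (40.0% called, against 45.5% of all genes).

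Inside the cell, 7 of 11 tested plaque scaffolds were called, 5 higher and 2 lower. That is 63.6%, against 45.5% of all genes (27.9% higher and 17.7% lower). The largest rises were of Amotl1, an angiomotin (log2 difference 3.03, and 2.66 without Apc_KO library 1), and Cgnl1, paracingulin (2.96, limma adjusted p = 5.41e-07). Amotl1 was at most 0.771 FPKM in Apc_WT and Apc_HET and passed the filter only through the Apc_KO libraries. Its difference was thus built into its selection, and no p-value is given for it. Cgnl1 went from 1.39 to 2.12 FPKM in Apc_WT to 15.6 to 32.7 in Apc_KO. Of 8 polarity genes 3 rose, Pard6g (1.11) and Crb3 (0.83) the most, 1 fell and 4 did not pass. Adherens junction genes were called in 6 of 7 cases (85.7%), 3 higher and 3 lower, with the nectins Pvrl4 at 1.79 and Pvrl1 at -0.75. Of 6 desmosome genes Jup (plakoglobin) rose by 0.59, Dsc2 (desmocollin-2) fell by 0.83 on the log2 scale and 4 did not pass. The share called there, 33.3%, was below that of all genes.

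EpCAM holds claudin-7 in the membrane, where the protease matriptase (St14) cleaves it. St14 rose by 0.49 on the log2 scale, from 98.4 ± 9.49 to 139 ± 4.11 FPKM (SD, n = 4; limma adjusted p = 0.00146), while Epcam itself did not pass (-0.03, adjusted p = 0.916).

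Of 12 tested transcription factors described as acting on claudin genes, 7 fell, 3 rose and 2 did not pass. The share called was 83.3%, against 45.5% of all genes. Grhl1, among those that rose, was at most 0.889 FPKM outside Apc_KO. It passed the filter only through the Apc_KO libraries, so its rise was built into its selection. The vitamin D receptor gene Vdr had the largest fall, from 175 ± 12.6 to 12.3 ± 8.18 FPKM (SD, n = 4; -3.95, limma adjusted p = 2.7e-06), followed by Hnf4a, a regulator of enterocyte genes (-1.60, adjusted p = 2.92e-05). Vdr was lowest in Apc_KO libraries 1 and 4 (6.89 and 4.40 FPKM against 15.9 and 22.1), the order seen for Cldn15. The 16 junction genes named above as called between Apc_KO and Apc_WT were also called between Apc_KO and Apc_HET (the largest limma adjusted p was 0.0124) and 0 of them between Apc_HET and Apc_WT (the smallest was 0.987). Enterocyte markers were called lower in Apc_KO than in Apc_WT in 8 of 8 cases, and goblet cell markers in 7 of 8, against 17.7% of all genes. The enterocyte sum was 1327 to 3683 FPKM in Apc_WT libraries, 425 to 1594 in those of Apc_HET and 81.6 to 291 in those of Apc_KO, and its part in the Cldn15 level was not tested. In Apc_HET library 3, where that sum was lowest outside Apc_KO, Cldn15 was 191 FPKM.

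**Figure D4:**
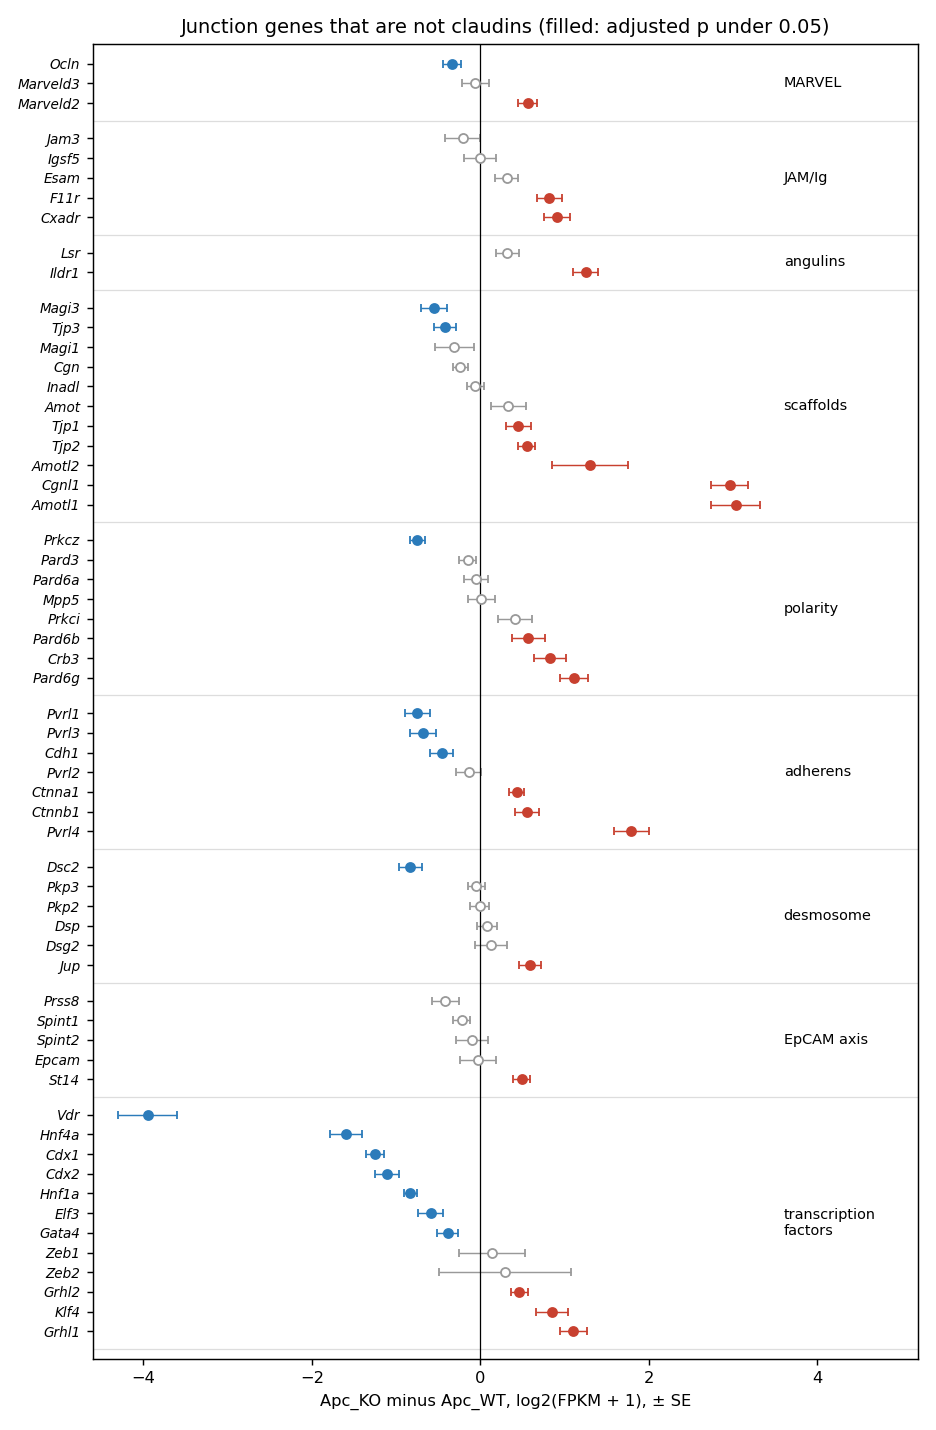
Log2 difference of Apc_KO minus Apc_WT on log2(FPKM + 1) (horizontal axis, ± SE) for 59 of the 60 tested junction genes that are not claudins, transcription factors included, grouped by role. Filled points passed an adjusted p of 0.05 in limma, red higher and blue lower. Most points lie within 1 of 0, with Amotl1 (3.03) and Cgnl1 (2.96) far to the right and Vdr (-3.95) far to the left.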

How the data were processed

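RNA of Lgr5-GFP+ cells from 12 mice was sequenced from random-primed cDNA. Per the file headers, the authors deposited FPKM. Bowtie, TopHat, Cufflinks and Cuffdiff and the build mm10 (GRCm38) are named, with no version of any tool, in the submitters' processing notes. Rows were summed per symbol, and symbols with differing loci (295) or a failed estimate (122) were left out. Tests used limma 3.58.1 (R 4.3.3) on log2(FPKM + 1), with a trend (1 fit of 12 libraries, two-sided, Benjamini-Hochberg over 12962 genes) and called at an adjusted p under 0.05. The members and lists were chosen with earlier results of these data known. Named junction genes were, per group, the 2 called with the largest log2 difference of Apc_KO minus Apc_WT. Counts are over the whole list, of which 1 gene is not reported here. The 3 nearest genes by profile are given for the 3 claudins with the largest differences. The fit was tested on simulated data. Alternatives were another pseudocount, filter, scaling, design, array weights, a replicate block and each library left out.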

Additional observations from a re-analysis of the deposited data

Results flagged for a closer look

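Values of a single library that lay far from the other 3 of their genotype (a gap above Dixon's critical value) were found in 6 of 93 groups examined, where chance gives about 1 in 20. Cldn12 was 23.15 FPKM in Apc_WT replicate 1, against 20.57 to 20.8 in the others. Cldn15 was 191.3 FPKM in Apc_HET replicate 3, against 219.3 to 220.7. Cxadr was 42.02 FPKM in Apc_HET replicate 3 (28.19 to 30.46 in the others) and 73.2 in Apc_KO replicate 1 (46.6 to 50.82). Amotl1 was 20.91 FPKM in Apc_KO replicate 1, against 6.235 to 8.016. Pvrl1 was 10.24 FPKM in Apc_WT replicate 3, against 7.611 to 7.873.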

How the results depend on the processing

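Without a filter on low values 2 other claudins were called for Apc_KO minus Apc_WT and 2 for Apc_KO minus Apc_HET (Cldn1 joined Cldn8), and with quantile normalization 0 for the first. The filter of 5 FPKM left no other claudin to test. For Apc_HET minus Apc_WT the count of all genes called was 0 (561 at an unadjusted p under 0.05), and 1 with 0.1 FPKM added, 1 with array weights and 1 with only the 2 genotypes. It ranged from 0 to 4 when each library was left out, with 3 without Apc_WT replicate 3 and 4 without Apc_HET replicate 4. For Apc_KO minus Apc_WT, 3613 genes were higher and 2291 lower, but 2864 and 2829 with size factors and 2764 and 3043 with quantile normalization. Junction genes called ran from 32 to 40 without each library in turn. Replicate numbers are not stated to pair the libraries. Of 12 same-numbered pairs, 3 correlated over 0.1 (range -0.195 to 0.18). In 0 of 12 libraries was the correlation with the own number the best in both other genotypes. These correlations cannot exclude a pairing. With the replicate block 5681 genes (37 junction genes) were called for Apc_KO minus Apc_WT, 5178 (33) for Apc_KO minus Apc_HET, and 0 for Apc_HET minus Apc_WT. Beyond the values given with Cldn6, Cldn18, Cldn8 and Ocln, small Apc_HET differences moved for Cldn12 (-0.00 with size factors), Cldn6 (0.29 with 0.1 FPKM, -0.06 with quantile normalization) and Cldn18 (-0.06 with quantile normalization), and the causes were not tested. Absolute depth is unknown, so levels near 0 have no interval.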

Other observations

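Among regulators of epithelial junctions that missed the filter, Twist1, a repressor of epithelial genes, was listed at 0 to 0.328 FPKM in Apc_WT and 0 to 0.479 in Apc_KO, but at 69.9 and 750.5 in Apc_HET libraries 1 and 2, with 2.12 and 0 in libraries 3 and 4. Zeb2, a repressor of the same kind, also read highest in Apc_HET library 2 (24.3 FPKM) and then library 1 (4.10), with 2.75 in the next highest of the 12. Cldn3, Cldn7 and Epcam in those Apc_HET libraries were 528 and 584, 202 and 199.7, and 763 and 776 FPKM, within the Apc_WT range. Stromal markers summed to 49.7, 88.3, 48.6 and 20.8 FPKM in Apc_HET libraries 1 to 4, to 8.91 to 26.4 in Apc_WT libraries and to 125 to 154 in Apc_KO libraries. That sum covers the 4 found of 7 listed markers. Of the 3 tested, limma called 2 higher and 1 lower in Apc_KO than in Apc_WT. Endothelial markers, 3 found of 6 listed, summed highest in Apc_KO libraries (77.39 to 116.1 FPKM). Their sum was 29.74 to 48.98 FPKM for Apc_HET and 46.05 to 73.11 for Apc_WT. Leukocyte markers summed to between 5.57 and 7.14 FPKM in Apc_WT, between 5.26 and 8.12 in Apc_HET and between 1.21 and 4.41 in Apc_KO. These genes were named after their values were seen.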
